A study of Mus musculus with 10 samples.

Results

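The genes described here are 38 genes of mitosis and of the kinetochore, the protein plate on which spindle fibres pull chromosomes. They were chosen by name, and all 38 were found among the 28987 Ensembl gene IDs measured by RNA-seq in crypts of the mouse ileum. Crypts are pits of the intestinal lining, where the epithelium divides and where Paneth cells sit. The libraries were 5 of VilCreER;icS5 (STAT5IEC+++) mice, titled Stat5 OE, 2 of VilCreER;Stat5 (STAT5IEC-/-) mice, titled Stat5 KO, and 3 of VilCreER;Stat5 (STAT5+/+) mice, titled Stat5 Ctrl. Cytokines and growth hormone activate the transcription factors STAT5A and STAT5B. Every group carries VilCreER, the usual name of a tamoxifen-inducible Cre driven by the villin promoter of the gut epithelium. By their labels the mice are 12 weeks old, male and C57Bl6, and the icS5 allele is not spelled out and its own control line was not analysed here. The labels do not say that libraries of a group are of different animals, and p-values then cover only the spread among these libraries, which may be technical.

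Dividing cells copy their DNA, then condense the chromosomes, attach them to the spindle through kinetochores and separate them. Entry into mitosis is driven by CDK1 with cyclins A and B. A checkpoint holds the anaphase-promoting complex (APC/C) in check until every chromosome is attached, and the complex then marks cyclin B and securin for destruction. The transcripts of most of these genes peak in late G2 and mitosis and fall in G1, so in a bulk sample their level follows how many cells are in those phases as well as how much each cell makes. Fewer dividing cells and less RNA per cell cannot be told apart here. In the ileum the dividing progenitors above the stem cells are the main source of such transcripts, and enterocytes leaving the crypt no longer divide.

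Late cell cycle genes often share a short promoter element, the cell cycle genes homology region (CHR, TTTGAA), bound by the DREAM and MuvB complexes, near CCAAT boxes (CCAAT) bound by NF-Y. RefSeq promoters of the build GRCm38.p6, from 250 bases before to 50 after the start of transcription, were found for 32 of the 38 genes, 34 promoters in all because Ect2 and Prc1 have overlapping starts. On either strand, TTTGAA was present in 27 of the 34 promoters (79.4%), against 17.9% of 32851 mouse promoters of the same length. CCAAT was also present in 27 of 34, against 37.4% of all promoters, and 24 of 34 promoters (70.6%) held both, against 6.95%. A TTTGAA lay between 50 bases before and 50 after the start in 24 of the 34, against 4.94% of all promoters. The share with TTTGAA was 9.76% among 41 promoters of a list of DNA replication genes, whose products act earlier in the cycle, and 39.4% among 104 promoters of further mitotic genes. TTCNNNGAA, the core pattern that STAT proteins bind, occurred in 1 of the 34 promoters, that of Ckap2l, against 8.30% of all. The promoters of Birc5, Mad2l1, Nuf2 and Nusap1 held neither TTTGAA nor CCAAT in these windows, and in 1 promoter a TTTGAA and a CCAAT shared a base. A match is a run of letters and not a measured binding site.

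Promoters of 4 genes are shown, because Cdk1 and Top2a carry the shared arrangement of a TTTGAA near the start with several CCAAT, because Ube2c has a single TTTGAA after 6 CCAAT, and because Pmf1, which had the smallest p of the 38 genes in OE against Ctrl, has its TTTGAA far upstream and its CCAAT after the RefSeq start. The whole Pmf1 window lies upstream of the GENCODE gene, so this CCAAT is upstream of the GENCODE start. The last 30 bases of the window lay in a GENCODE transcript of the same gene for 28 of the 34 promoters. Each runs 5′ to 3′ on the strand of the gene, and capitals mark TTTGAA and CCAAT on either strand (TTCAAA and ATTGG on the other strand).
Cdk1 (chr10:69352863-69353162, minus strand): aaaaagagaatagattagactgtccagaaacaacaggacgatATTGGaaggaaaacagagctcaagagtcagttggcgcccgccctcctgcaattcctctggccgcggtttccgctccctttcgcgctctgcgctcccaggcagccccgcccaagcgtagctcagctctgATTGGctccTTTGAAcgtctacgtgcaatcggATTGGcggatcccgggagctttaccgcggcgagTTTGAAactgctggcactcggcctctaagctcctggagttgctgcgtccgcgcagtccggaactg
Top2a (chr11:99024140-99024439, minus strand): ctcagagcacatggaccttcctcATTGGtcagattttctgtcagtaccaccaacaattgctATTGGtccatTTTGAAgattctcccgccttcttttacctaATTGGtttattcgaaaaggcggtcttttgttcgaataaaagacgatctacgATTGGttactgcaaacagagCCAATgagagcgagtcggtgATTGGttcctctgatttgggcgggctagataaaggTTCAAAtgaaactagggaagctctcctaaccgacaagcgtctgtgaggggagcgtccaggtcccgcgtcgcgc
Ube2c (chr2:164769679-164769978, plus strand): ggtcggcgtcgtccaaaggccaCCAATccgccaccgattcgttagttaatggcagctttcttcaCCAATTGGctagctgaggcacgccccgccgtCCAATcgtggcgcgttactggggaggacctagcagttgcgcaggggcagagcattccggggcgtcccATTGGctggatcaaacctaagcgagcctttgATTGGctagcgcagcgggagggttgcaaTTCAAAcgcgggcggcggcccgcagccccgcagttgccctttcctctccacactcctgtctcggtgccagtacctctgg
Pmf1 (chr3:88410348-88410647, minus strand): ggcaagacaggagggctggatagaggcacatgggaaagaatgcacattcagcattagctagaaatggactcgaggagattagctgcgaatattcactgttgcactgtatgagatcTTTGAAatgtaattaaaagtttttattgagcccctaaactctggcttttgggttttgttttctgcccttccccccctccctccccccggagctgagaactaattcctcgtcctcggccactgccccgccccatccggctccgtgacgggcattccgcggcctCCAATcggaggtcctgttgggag

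The values are TPM, shares of all transcripts per gene length, divided by a median-ratio factor per library and called scaled TPM. Since TPM hold no number of reads, depth is unknown and counting error is not given. Stat5a was at 1.56 to 3.55 scaled TPM in OE, 0.336 to 0.637 in KO and 1.07 to 2.597 in Ctrl, and Stat5b at 1.49 to 5.53 in OE, 0.430 to 0.482 in KO and 0.970 to 1.76 in Ctrl. The library labelled OE 1 lay within the Ctrl range for both. In Ctrl 2, transcripts encoded in mitochondria took 83.7% of the TPM, against 43.3% to 56.97% in the other libraries, and its factor was 0.295 against 0.831 to 1.31. Genes with at least 1 TPM numbered 8263 in Ctrl 2 and 11050 to 11932 in the others, so its lowest values lie near the floor. Uty, Kdm5d, Eif2s3y and Ddx3y of the Y chromosome summed to 3.45 TPM in Ctrl 3, 0.250 in OE 3 and 0.140 in OE 4, against 32.3 to 131 elsewhere, whereas all libraries carry the label male. The crypt stem cell gene Olfm4 was at 54.0 to 469 scaled TPM in OE, 156 to 202 in KO and 50.4 to 325 in Ctrl, and Lgr5 was above 0 in all 10 libraries. Both were lowest in Ctrl 2, at 50.4 and 0.352.

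All 38 genes had at least 1 TPM in at least 2 libraries and were tested. Averaged over the 10 libraries, Top2a was the highest at 85.5 scaled TPM and Ckap2l, a spindle protein, the lowest at 2.91. Above 50 scaled TPM stood Top2a and Stmn1 alone, 18 genes averaged 10 or more, and 11 averaged under 5, among them the long kinetochore genes Cenpe and Cenpf. Outside Ctrl 2 the coefficient of variation over 9 libraries ran from 18.4% for Plk1 to 69.2% for Ect2, with a median of 30.0%.

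The main division among the 10 libraries was between Ctrl 2 and the rest. Of the 38 genes, 33 were lowest of all libraries in Ctrl 2, where 27.5% of the 13056 genes tested were lowest. The exceptions were Bub1b, Cdca8, Tpx2 and Pmf1, which were lowest elsewhere, and Kif2c, a microtubule-depolymerising kinesin. Kif2c was highest in Ctrl 2 at 9.44 scaled TPM against 2.67 to 6.63 in the other libraries. As deposited, Kif2c was at 2.78 TPM in Ctrl 2 and 2.53 to 7.86 in the others, so its rank there depends on the scaling. Summed over the 38 genes, the level was 169.7 scaled TPM in Ctrl 2 and 446 to 749.7 in the other 9 libraries. As deposited the sum was 49.99 TPM in Ctrl 2 and 409 to 972 in the others. Deposited TPM are shares, and mitochondrial transcripts took 83.7% of them in Ctrl 2. The low deposited sum there is therefore no separate support for the scaled one. Relative to the mean of the other libraries, Ctrl 2 stood at a median of -1.61 on the log2 scale, with 25 of 38 genes below -1. The extremes were -3.77 for Birc5 and 1.15 for Kif2c.

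**Figure D1:**
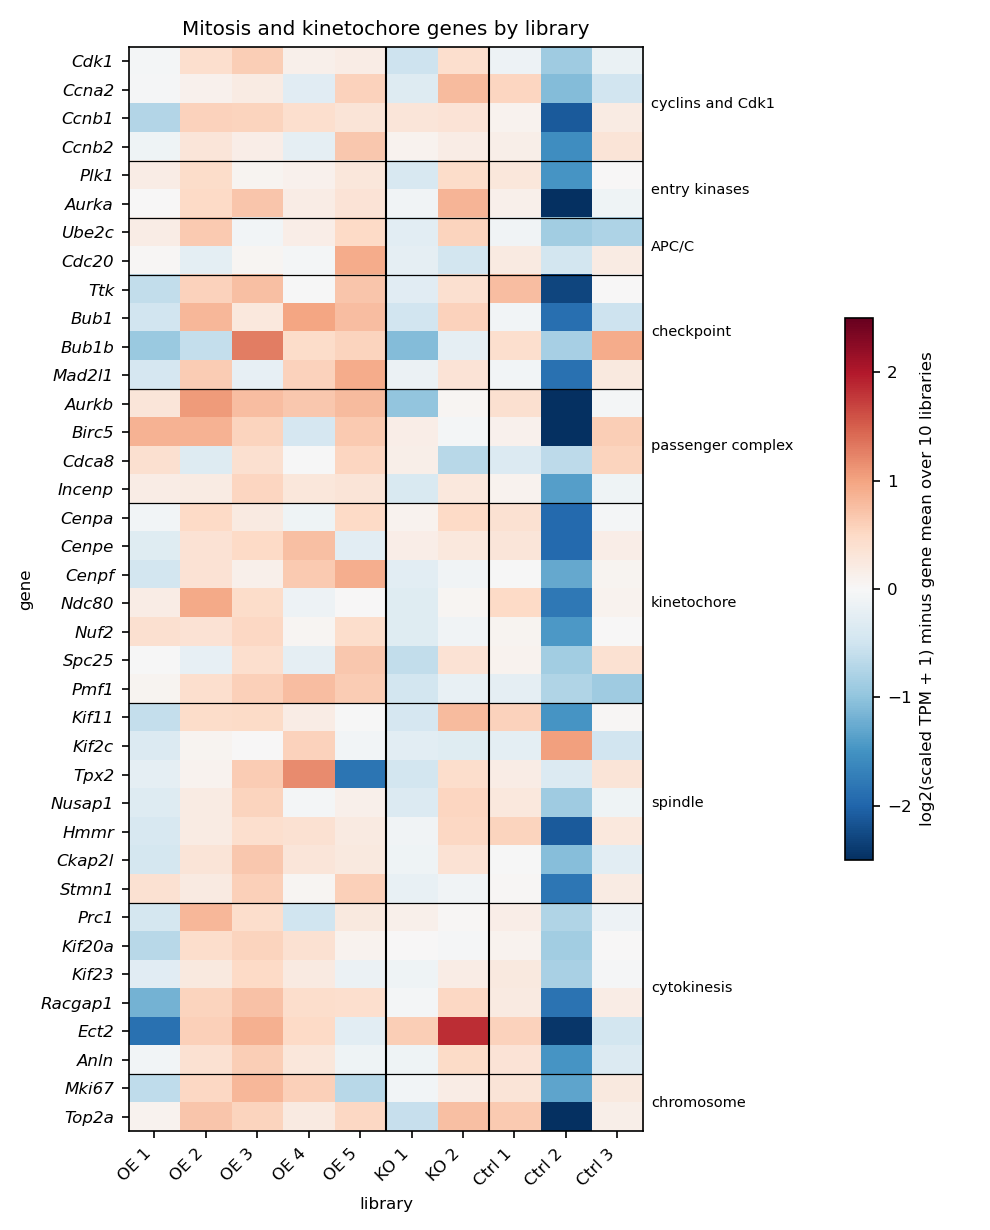
Level of each gene in each library as log2(scaled TPM + 1) minus the gene's mean over the 10 libraries, with genes in rows by role and libraries in columns (OE, KO, Ctrl). The column of Ctrl 2 is blue for nearly every gene, Kif2c being red, and KO 2 is redder than KO 1 in 32 of 38 rows.

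Markers of other cells also stood apart in Ctrl 2. Of 12 enterocyte markers, 11 were highest there, and the summed level of the 12 was 15029 scaled TPM against 1018 to 8255 in the other libraries. As deposited, this sum was 4426 TPM in Ctrl 2 and 1207 to 6861 in the others, so its rank in Ctrl 2 depends on the scaling. All 10 Paneth cell markers were lowest in Ctrl 2, at a sum of 516 against 3497 to 16312 scaled TPM. Of 8 crypt stem cell markers, 6 were lowest in Ctrl 2, Axin2 and Rnf43 being the exceptions. Their sum was 104 there against 108 to 574 in the other libraries. By group, the enterocyte sum was 1018 to 8255 in OE, 1624 to 2234 in KO and 1626 to 15029 in Ctrl, and the Paneth sum 5246 to 16312 in OE, 3497 to 7751 in KO and 516 to 7982 in Ctrl. The enterocyte marker Lct was at 0 in 2 libraries and the Paneth marker Pla2g2a in 1. Whether the makeup of the cells in Ctrl 2 bears on its mitotic genes was not tested.

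Libraries of the other groups also differed in the same direction for most of the genes. KO 2 lay above KO 1 for 32 of the 38, with a median difference of 0.53 on the log2 scale, where 48.6% of all genes tested lay higher in KO 2. The library labelled OE 1 lay above OE 2 for 5 of the 38 genes (48.6% of all genes tested) and above OE 3 for 4 (49.0%). It lay above OE 4 for 13 (47.5%) and above OE 5 for 5 (48.5%). Ctrl 1 lay above Ctrl 3 for 28 of 38 (49.6% of all genes tested), with a median difference of 0.24. The highest library was OE 3 for 12 of the 38 genes (7.20% of all genes tested), OE 2 for 8 (5.92%), OE 5 for 5 (7.84%) and KO 2 for 5 (14.0%). Neither the library labelled OE 1 (11.7% of all genes tested) nor KO 1 (5.51%) was highest for any of the 38.

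**Figure D2:**
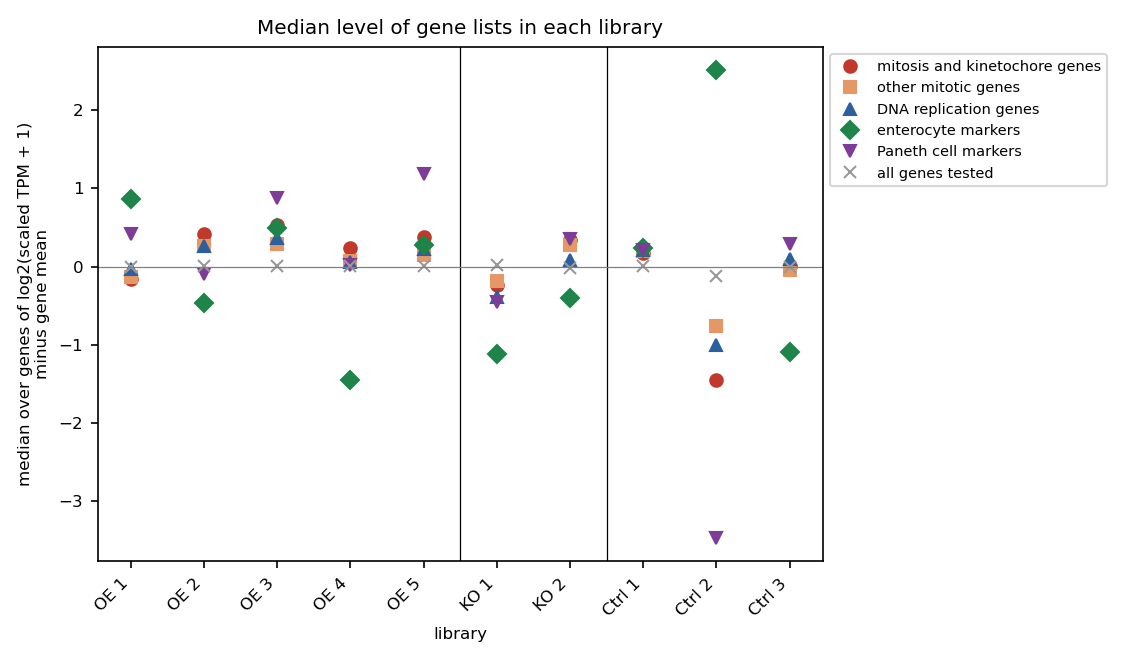
Median over the genes of a list of log2(scaled TPM + 1) minus each gene's mean over 10 libraries, by library, for the 38 genes and for other lists. In Ctrl 2 the 38 genes lie at -1.45, further mitotic genes at -0.77, replication genes at -1.01, Paneth markers at -3.46 and enterocyte markers at 2.505, while all genes tested lie at -0.12.

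The first comparison set the icS5 mice (OE) against Ctrl. Higher values in OE were the rule, but no gene passed the threshold, and most of the difference was absent without Ctrl 2. Positive log2 differences were found for 35 of 38 genes, against 52.1% of all genes tested, and the median difference was 0.68 against 0.021 over all genes. Pmf1, a kinetochore protein of the MIS12 complex, stood out at 5.95 ± 1.20 scaled TPM in OE and 2.21 ± 0.837 in Ctrl (SD, n = 5 and 3). Ube2c, the ubiquitin-conjugating enzyme of the APC/C, was at 38.6 ± 8.05 in OE and 21.1 ± 6.99 in Ctrl. In limma, 0 of 13056 genes were past an adjusted p of 0.05 in either direction (0% called), with 797 at an unadjusted p under 0.05, of which 7 were among the 38 genes (Cdk1, Ube2c, Bub1, Aurkb, Incenp, Nuf2 and Pmf1). All 7 were higher in OE, as were 3.79% of all genes, and 2.31% of all genes were lower at that p. Every OE library lay above every Ctrl library for 4 of the 38 (Cdk1, Ube2c, Incenp and Pmf1), where 2.21% of all genes did so, and for 0 of the 38 did OE lie wholly below Ctrl, against 1.52%. Without Ctrl 2 the median of the 38 was 0.083 and 25 of 38 were positive. Having lain above every Ctrl library, those 4 genes lay above Ctrl 1 and Ctrl 3 by necessity. No further gene joined them, so OE lay wholly above these 2 for 4 of the 38, where 3.79% of all genes did so. Without the library labelled OE 1 the median was 0.79.

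The second comparison set KO against Ctrl, to show what differs without epithelial Stat5. Here too the values were mostly higher in KO, and again no gene passed and the difference was absent without Ctrl 2. Of the 38 genes 33 had positive log2 differences, against 53% of all genes tested, with a median of 0.42 against 0.038. Ect2, the exchange factor that activates RhoA for cytokinesis, had the smallest p, at 20.9 ± 12.4 scaled TPM in KO and 5.86 ± 5.61 in Ctrl (SD, n = 2 and 3). In limma 0 of 13056 genes passed in either direction (0% called), 452 had an unadjusted p under 0.05, and 0 of these were among the 38, where 1.94% of all genes were higher and 1.52% lower at that p. Both KO libraries lay above every Ctrl library for 2 of the 38 (Ect2 and Ccnb1), where 9.09% of all genes did so, and for 0 of the 38 did KO lie wholly below Ctrl, against 7.27%. Without Ctrl 2 the median was -0.065, with 16 of 38 positive. KO then lay wholly above Ctrl 1 and Ctrl 3 for 2 genes, where 14.0% of all genes did. These were again Ccnb1 and Ect2, by necessity, as KO lay above every Ctrl library for them. It lay wholly below for 7 (Cdc20, Bub1b, Cenpf, Ndc80, Nuf2, Stmn1 and Mki67), where 13.1% did. The median was 0.20 without KO 2 and 0.78 without KO 1. Both comparisons share the Ctrl libraries, so their common direction is no separate support. Some markers of other cells also separated KO and Ctrl. Summed over 10 macrophage and dendritic cell markers, the level was 151 to 252 scaled TPM in KO and 51.4 to 87.8 in Ctrl, with no overlap, and 72.6 to 305 in OE. Most of the KO sum was Lyz2, at 104 to 171 in KO and 2.39 to 10.7 in Ctrl. Of the 9 tested, 3 had KO wholly above Ctrl, and Ctss overlapped, at 30.9 to 55.0 in KO and 31.3 to 66.6 in Ctrl. Over 9 fibroblast and muscle markers the sum was 12.4 to 42.4 in KO and 2.48 to 18.5 in Ctrl, and 3 of the 4 tested had KO wholly above Ctrl. Their part in the result was not tested.

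OE against KO uses the Ctrl libraries only for the scaling, the choice of genes tested and the shared spread. Positive differences were found for 28 of 38 genes, against 49.9% of all genes tested, and the median was 0.18 against -0.00062. The genes with the smallest p were Pmf1 and Aurkb, both higher in every OE library than in both KO libraries, and Ect2, which was higher on average in KO. In limma 0 of 13056 genes passed (0% called), 385 had an unadjusted p under 0.05, and 1 of the 38 (Pmf1) was among them, higher in OE like 1.62% of all genes, while 1.33% were lower at that p. OE lay wholly above KO for 4 of the 38 (Aurkb, Nuf2, Pmf1 and Stmn1), where 4.04% of all genes did so, and wholly below for 0, against 4.43%. The median was -0.085 without KO 1 and 0.43 without KO 2, so its sign depends on which KO library is compared. Markers of lymphocytes, which can also divide, differed between the same libraries. Summed over 10 T cell markers the level was 90.5 to 362 scaled TPM in OE, 31.4 to 72.3 in KO and 50.8 to 171.5 in Ctrl. The largest part of each OE sum was Gzma, at 43.0 to 218. The highest Ctrl sum was that of Ctrl 2, with Cd3g at 91.3. OE lay wholly above KO for 5 of these 10 markers, and the others overlapped. Over 12 germinal centre B cell markers the sum was 14.4 to 113 in OE, 15.1 to 33.4 in KO and 11.3 to 17.4 in Ctrl. Mef2b, a transcription factor gene of germinal centre B cells, was at 0 in 5 libraries, all Ctrl libraries among them, and reached only 1.71. Bcl6, S1pr2 and Rgs13 of the same list were above 0 in every library, and the other members were at 0 in some. Bcl6 was highest in Ctrl 2, at 3.48. The highest B cell sum was that of OE 4. The part of these cells in the mitotic genes was not tested.

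**Figure D3:**
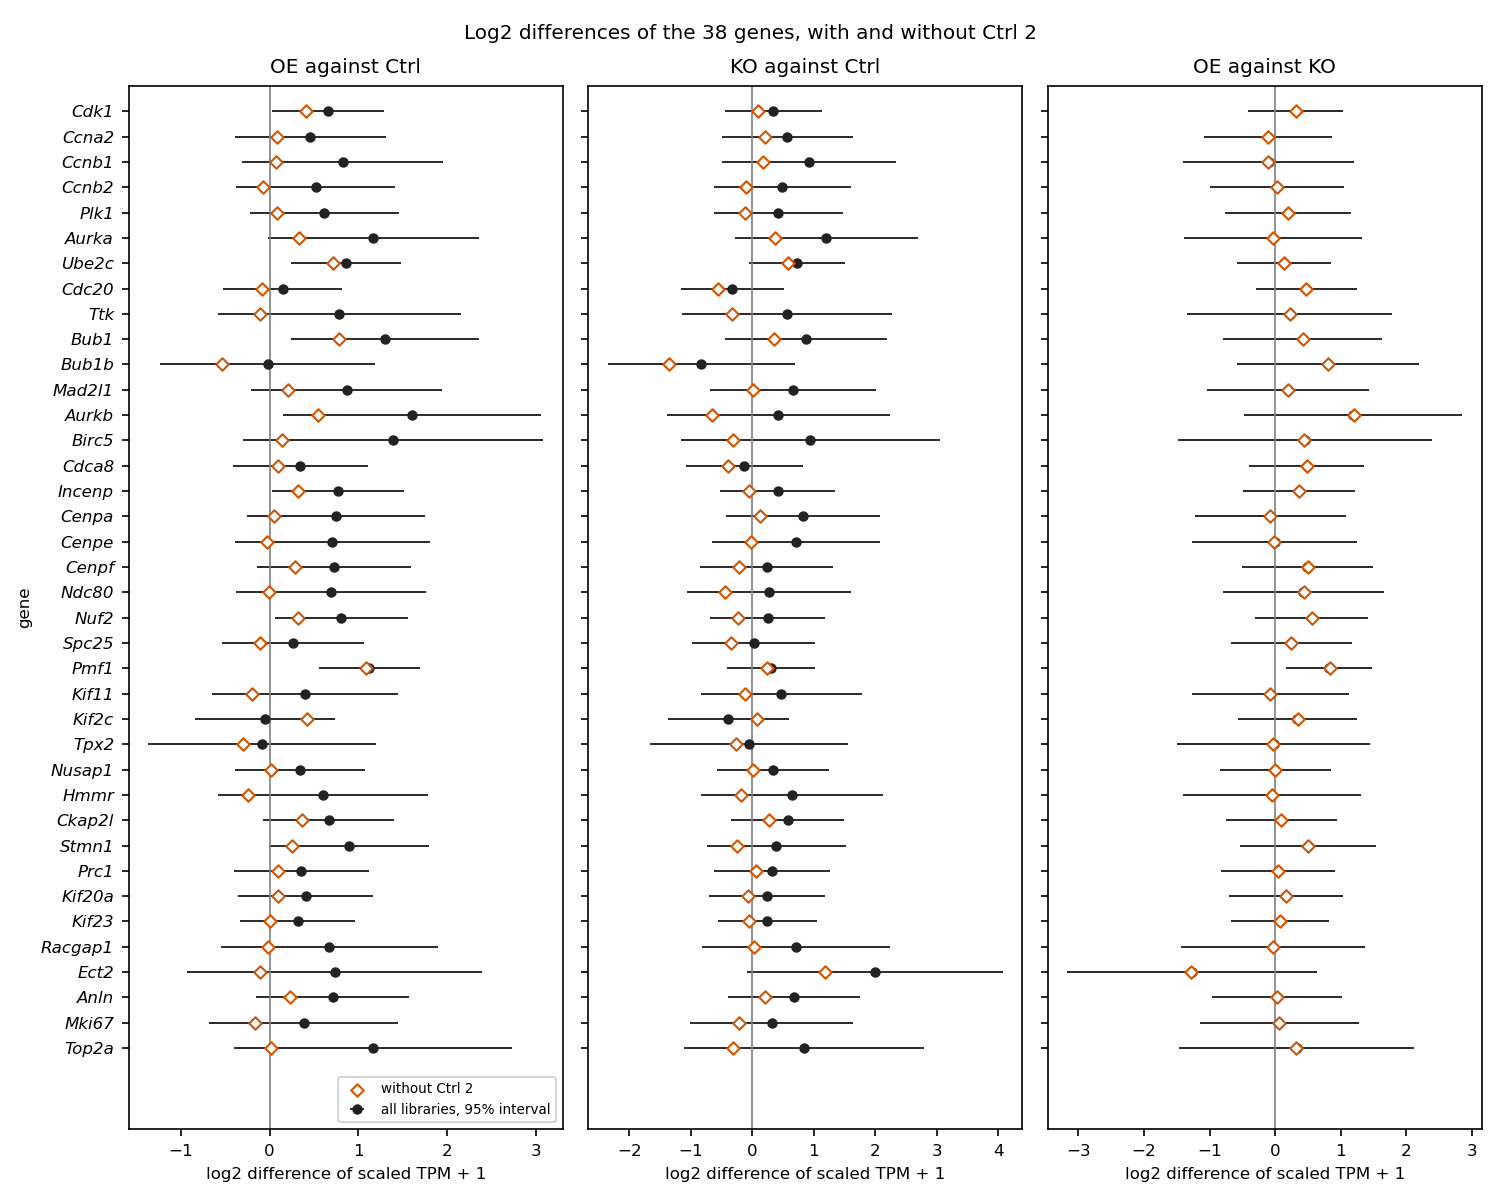
Log2 difference of scaled TPM + 1 for the 38 genes in OE against Ctrl, KO against Ctrl and OE against KO, with 95% intervals of the limma fit (black) and the values without Ctrl 2 (open diamonds). Without Ctrl 2 most values against Ctrl move towards 0, while Pmf1 in OE against Ctrl stays at 1.09 and OE against KO hardly moves.

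Cyclins and Cdk1 drive entry into mitosis. Gene coordinates are those of the GENCODE annotation of GRCm38. Cdk1 (ENSMUSG00000019942, chromosome 10, 69335146 to 69352938), the kinase itself, was at 34.4, 48.1, 55.3, 39.3 and 41.1 scaled TPM in OE 1 to OE 5, 24.6 and 48.0 in KO 1 and KO 2, and 32.8, 18.8 and 31.6 in Ctrl 1 to Ctrl 3. Every OE library lay above every Ctrl library, while KO 1 lay within the Ctrl range and KO 2 above it. Its log2 difference was 0.66 (0.025 to 1.29) in OE against Ctrl, with the 95% interval in brackets, 0.34 (-0.45 to 1.13) in KO against Ctrl and 0.32 (-0.41 to 1.04) in OE against KO, and the limma adjusted p-values were 0.755, 0.943 and 1.00. Without Ctrl 2 the OE difference was 0.41, and without KO 2 the KO difference was -0.13. Cyclin A2 (Ccna2) averaged 30.9 ± 7.06 in OE, 35.3 ± 18.9 in KO and 24.4 ± 14.8 in Ctrl, in scaled TPM as mean ± SD over 5, 2 and 3 libraries, as are all averages that follow. Cyclin B1 (Ccnb1), the partner of CDK1 in mitosis, averaged 22.3 ± 6.90 in OE, 22.7 ± 0.410 in KO and 14.5 ± 9.62 in Ctrl, and its lowest values outside Ctrl 2 (3.45) were the 10.4 of the library labelled OE 1 and the 19.2 of Ctrl 1. Cyclin B2 (Ccnb2) averaged 17.5 ± 4.70 in OE, 16.7 ± 0.910 in KO and 13.5 ± 7.84 in Ctrl. Processed copies named Ccnb1-ps and Ccnb2-ps reached 1.68 and 1.87 scaled TPM, and how reads were split between them and the genes is not given.

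Polo-like kinase Plk1 and Aurora A (Aurka) ready the centrosomes and the spindle. Plk1 was at 13.6, 16.8, 12.6, 12.9 and 14.8 scaled TPM in OE 1 to OE 5, 8.75 and 16.7 in KO 1 and KO 2, and 14.6, 3.67 and 12.0 in Ctrl 1 to Ctrl 3. Only Ctrl 2 lay far from the rest, and KO 1 was the next lowest. Its log2 difference was 0.62 (-0.22 to 1.46) in OE against Ctrl and 0.42 (-0.63 to 1.47) in KO against Ctrl (limma adjusted p = 0.757 and 0.943), and 0.081 and -0.11 without Ctrl 2. Aurka was at 5.23, 7.71, 9.03, 6.02 and 6.85 scaled TPM in OE 1 to OE 5, 4.82 and 10.1 in KO 1 and KO 2, and 5.79, 0.102 and 4.73 in Ctrl 1 to Ctrl 3. KO 2 was the highest library and KO 1 lay among the Ctrl libraries. The log2 difference was 1.20 (-0.28 to 2.69) in KO against Ctrl and 1.17 (-0.021 to 2.36) in OE against Ctrl (limma adjusted p = 0.943 and 0.755), and 0.37 and 0.34 without Ctrl 2.

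Of the APC/C factors, Ube2c (ENSMUSG00000001403, chromosome 2, 164769898 to 164778822) was at 35.2, 49.3, 29.5, 34.7 and 44.4 scaled TPM in OE 1 to OE 5, 25.7 and 45.9 in KO 1 and KO 2, and 29.1, 16.4 and 17.8 in Ctrl 1 to Ctrl 3. All OE libraries lay above all Ctrl libraries, by a small margin over Ctrl 1, and KO 2 lay among the highest OE libraries. The log2 difference was 0.86 (0.24 to 1.49) in OE against Ctrl and 0.72 (-0.059 to 1.502) in KO against Ctrl, with limma adjusted p = 0.755 and 0.943, and it kept most of its size without Ctrl 2, at 0.71 and 0.57. In OE against KO it was 0.14 (-0.58 to 0.86), and -0.26 without KO 1. Tnnc2, which overlaps Ube2c on the other strand, reached only 0.207 scaled TPM. Cdc20, which activates the complex and is held by the checkpoint, did not share this pattern, at 8.198 ± 3.40 in OE, 5.36 ± 0.740 in KO and 7.13 ± 2.01 in Ctrl, and both KO libraries lay below Ctrl 1 and Ctrl 3. Elovl1 overlaps Cdc20 on the opposite strand and reached 84.8 scaled TPM, and no source used here states that reads were counted by strand. The same limit holds for Ccna2 with Exosc9 (up to 111 scaled TPM), Cdca8 with 9930104L06Rik (6.53), Nusap1 with Oip5 (7.96), Prc1 with Rccd1 (15.7) and Kif20a with Cdc23 (13.5).

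The spindle checkpoint genes are Ttk (MPS1), Bub1, Bub1b (BUBR1) and Mad2l1 (MAD2). Mad2l1 was the most abundant, at 15.4, 32.8, 17.9, 31.5 and 40.4 scaled TPM in OE 1 to OE 5, 18.7 and 26.7 in KO 1 and KO 2, and 19.7, 4.96 and 24.9 in Ctrl 1 to Ctrl 3. Values of OE ran from below Ctrl 1 to above all other libraries, so the groups overlap. Its log2 difference was 0.87 (-0.21 to 1.95) in OE against Ctrl and 0.66 (-0.68 to 2.01) in KO against Ctrl (limma adjusted p = 0.755 and 0.943), and 0.21 and 0.013 without Ctrl 2. Bub1 (ENSMUSG00000027379, chromosome 2, 127801122 to 127831865), a kinase of the kinetochore, was at 3.28, 9.56, 6.11, 10.9 and 9.15 scaled TPM in OE 1 to OE 5, 3.30 and 7.86 in KO 1 and KO 2, and 4.68, 0.620 and 3.13 in Ctrl 1 to Ctrl 3. The library labelled OE 1 and KO 1 lay within the Ctrl range and the others above it. The log2 difference in OE against Ctrl was 1.30 (0.24 to 2.36), with limma adjusted p = 0.755, and 0.78 without Ctrl 2. Its KO against Ctrl value was 0.88 (-0.45 to 2.20). Bub1b ran from 5.21 to 27.5 scaled TPM in OE, 4.56 to 9.07 in KO and 5.60 to 21.5 in Ctrl. Ttk averaged 5.61 ± 2.30 in OE, 4.49 ± 1.83 in KO and 3.96 ± 3.82 in Ctrl, with 0.0471 in Ctrl 2 (0.0139 TPM as deposited, near the floor).

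The chromosomal passenger complex, made of Aurora B (Aurkb), survivin (Birc5), borealin (Cdca8) and the scaffold Incenp, corrects faulty attachments. Aurkb (ENSMUSG00000020897, chromosome 11, 69045647 to 69051664) was at 13.1, 23.0, 18.7, 17.4 and 18.8 scaled TPM in OE 1 to OE 5, 4.78 and 10.9 in KO 1 and KO 2, and 14.1, 0.417 and 10.1 in Ctrl 1 to Ctrl 3. OE lay wholly above KO, and all but the one labelled OE 1 lay above all Ctrl libraries. The log2 difference was 1.19 (-0.48 to 2.85) in OE against KO, 1.61 (0.16 to 3.06) in OE against Ctrl and 0.42 (-1.40 to 2.24) in KO against Ctrl, with limma adjusted p = 1.00, 0.755 and 0.953. Without Ctrl 2 these were 1.20, 0.54 and -0.65, so the KO value against Ctrl changed its sign. Birc5 was at 28.8, 28.9, 23.2, 11.3 and 24.8 scaled TPM in OE 1 to OE 5, 17.3 and 14.9 in KO 1 and KO 2, and 16.7, 0.554 and 24.2 in Ctrl 1 to Ctrl 3. OE 4 was the lowest library after Ctrl 2, and the groups overlap. Its log2 difference was 1.39 (-0.30 to 3.08) in OE against Ctrl (limma adjusted p = 0.755) and 0.14 without Ctrl 2. Incenp averaged 9.59 ± 1.09 in OE, 7.40 ± 2.59 in KO and 5.76 ± 3.08 in Ctrl, with every OE library above every Ctrl library. Cdca8 averaged 5.66 ± 1.503 in OE, 3.86 ± 1.94 in KO and 4.46 ± 2.497 in Ctrl. In OE against KO all 4 genes of the complex had positive values, from 0.36 to 1.19.

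The kinetochore genes comprise the centromeric histone Cenpa, the motor Cenpe and its partner Cenpf, the NDC80 complex genes Ndc80, Nuf2 and Spc25, and Pmf1. Pmf1 (ENSMUSG00000028066, chromosome 3, 88394143 to 88410331) was at 4.11, 5.50, 6.34, 7.25 and 6.55 scaled TPM in OE 1 to OE 5, 2.53 and 3.24 in KO 1 and KO 2, and 3.17, 1.88 and 1.60 in Ctrl 1 to Ctrl 3. All 5 OE libraries lay above all 5 other libraries, the lowest OE value being 4.11 and the highest other value 3.24. Of all genes tested, OE lay wholly above Ctrl for 2.21% and wholly above KO for 4.04%, and the share with both was not counted. Its log2 difference was 1.12 (0.55 to 1.69) in OE against Ctrl (limma adjusted p = 0.755) and 0.83 (0.17 to 1.48) in OE against KO (limma adjusted p = 1.00). It was 0.30 (-0.41 to 1.01) in KO against Ctrl. Without Ctrl 2 it was 1.09 in OE against Ctrl, and leaving out any single library gave 0.98 to 1.32. No annotated gene overlaps Pmf1.

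No other kinetochore gene had OE wholly above both KO and Ctrl. Cenpa was at 15.5, 23.6, 19.3, 15.1 and 23.5 scaled TPM in OE 1 to OE 5, 17.3 and 23.4 in KO 1 and KO 2, and 21.5, 3.53 and 15.7 in Ctrl 1 to Ctrl 3. The groups overlap with Ctrl 2 included. The log2 difference was 0.75 (-0.26 to 1.75) in OE against Ctrl and 0.82 (-0.43 to 2.08) in KO against Ctrl (limma adjusted p = 0.757 and 0.943). Without Ctrl 2 these were 0.046 and 0.13. Nuf2, a coiled coil of the NDC80 complex, averaged 7.49 ± 0.991 in OE, 4.75 ± 0.605 in KO and 4.32 ± 2.49 in Ctrl, with OE wholly above KO. Its partner Ndc80 averaged 3.59 ± 1.47 in OE, 2.32 ± 0.565 in KO and 2.33 ± 2.09 in Ctrl. Spc25 of the same complex averaged 9.77 ± 3.08 in OE, 8.30 ± 4.29 in KO and 8.24 ± 3.65 in Ctrl. Cenpe, the motor, averaged 4.96 ± 1.86 in OE, 4.74 ± 0.276 in KO and 3.30 ± 2.63 in Ctrl. Its partner Cenpf averaged 4.99 ± 2.00 in OE, 3.06 ± 0.378 in KO and 2.75 ± 1.63 in Ctrl, with both KO libraries below Ctrl 1 and Ctrl 3.

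**Figure D4:**
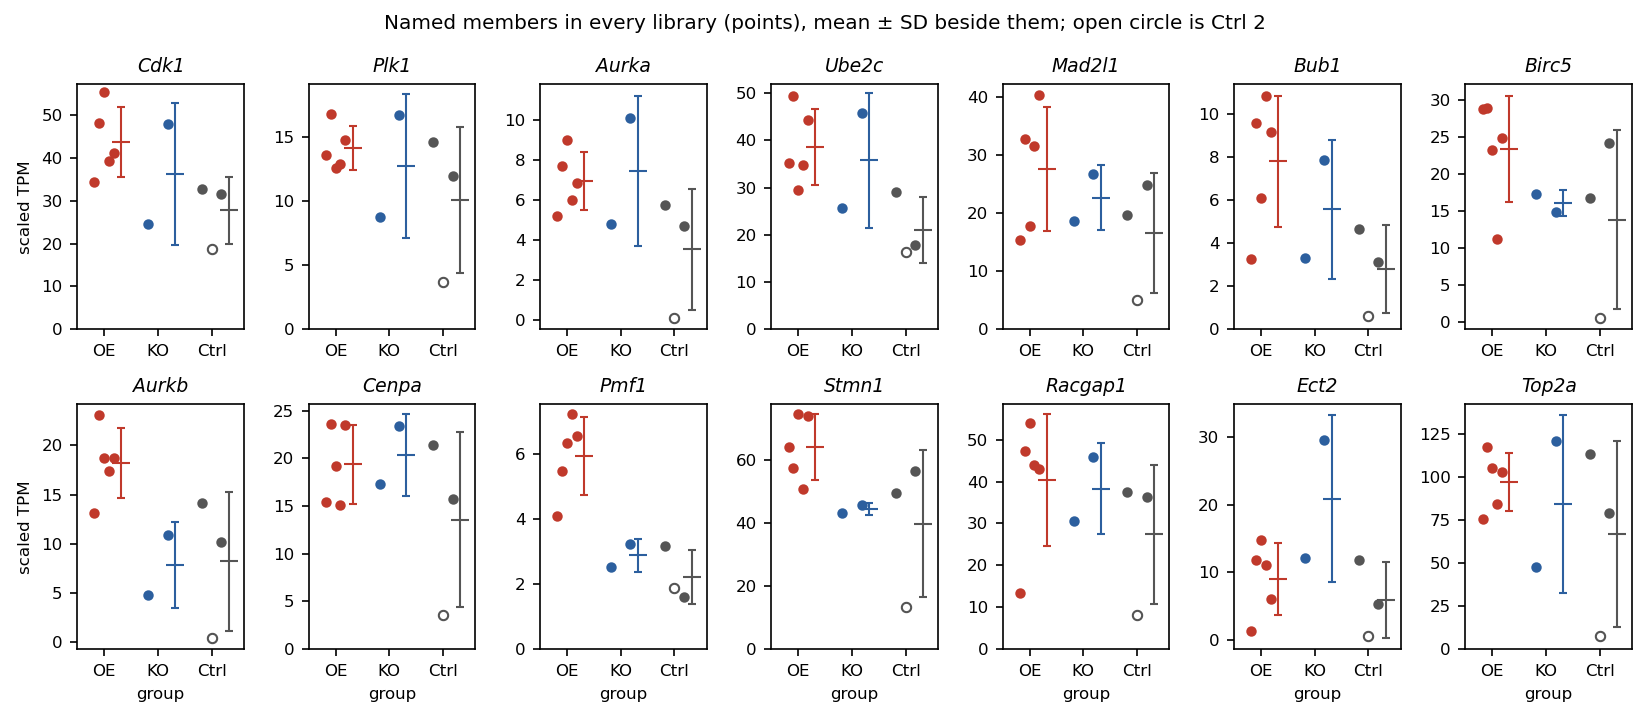
Scaled TPM of 14 genes in every library (points, linear axes), with the group mean ± SD beside them (n = 5 OE, 2 KO, 3 Ctrl) and Ctrl 2 as an open circle. For Pmf1 all OE points lie above all KO and Ctrl points, and for the other 13 genes Ctrl 2 is the lowest library.

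Spindle genes include the motors Kif11 (Eg5) and Kif2c, the Aurora A activator Tpx2, the microtubule binders Nusap1, Hmmr and Ckap2l, and Stmn1 (stathmin), which sequesters tubulin. Stmn1 was at 64.4, 57.5, 74.8, 50.8 and 74.2 scaled TPM in OE 1 to OE 5, 43.2 and 45.8 in KO 1 and KO 2, and 49.7, 13.3 and 56.8 in Ctrl 1 to Ctrl 3. All OE libraries lay above both KO libraries, and Ctrl 1 and Ctrl 3 lay above both KO and within or below the OE range. The log2 difference was 0.51 (-0.53 to 1.54) in OE against KO, 0.90 (-0.0051 to 1.80) in OE against Ctrl and 0.39 (-0.74 to 1.52) in KO against Ctrl, with limma adjusted p = 1.00, 0.755 and 0.943. Without Ctrl 2 the values against Ctrl were 0.25 and -0.25. Kif11 averaged 16.3 ± 4.70 in OE, 18.1 ± 10.7 in KO and 13.8 ± 8.77 in Ctrl. Tpx2 spread widely within OE, from 0.783 in OE 5 to 13.4 in OE 4, and averaged 6.66 ± 4.76 in OE, 5.64 ± 2.81 in KO and 5.72 ± 1.55 in Ctrl. Nusap1 averaged 6.73 ± 1.74 in OE, 6.89 ± 3.25 in KO and 5.31 ± 2.35 in Ctrl. Hmmr averaged 5.23 ± 1.25 in OE, 5.46 ± 1.91 in KO and 4.25 ± 3.52 in Ctrl. The groups overlap for all of these, and Ckap2l averaged 3.46 ± 1.13 in OE, 3.11 ± 0.926 in KO and 1.86 ± 0.995 in Ctrl. Kif2c averaged 4.42 ± 1.34 in OE, 3.19 ± 0.103 in KO and 5.14 ± 3.73 in Ctrl. Its Ctrl mean rests on the high scaled value of Ctrl 2, which was 2.78 TPM as deposited.

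Cytokinesis is carried out by the central spindle and the contractile ring. Racgap1, which with the kinesin Kif23 forms centralspindlin, was at 13.5, 47.3, 54.1, 43.9 and 43.1 scaled TPM in OE 1 to OE 5, 30.6 and 46.0 in KO 1 and KO 2, and 37.6, 8.21 and 36.3 in Ctrl 1 to Ctrl 3. The library labelled OE 1 and Ctrl 2 were low and the other 8 lay between 30.6 and 54.1. Its log2 difference was 0.67 (-0.55 to 1.89) in OE against Ctrl and 0.70 (-0.82 to 2.23) in KO against Ctrl (limma adjusted p = 0.774 and 0.943), and -0.013 and 0.024 without Ctrl 2. Ect2 (ENSMUSG00000027699, chromosome 3, 27097222 to 27153878), which centralspindlin recruits, was at 1.36, 11.8, 14.7, 11.1 and 6.10 scaled TPM in OE 1 to OE 5, 12.1 and 29.6 in KO 1 and KO 2, and 11.7, 0.589 and 5.25 in Ctrl 1 to Ctrl 3. The library labelled OE 1 and Ctrl 2 were again low, KO 2 was the highest, and KO 1 lay just above Ctrl 1. The log2 difference was 2.00 (-0.081 to 4.07) in KO against Ctrl and -1.26 (-3.17 to 0.64) in OE against KO (limma adjusted p = 0.943 and 1.00), 1.18 and -1.29 without Ctrl 2. In OE against Ctrl it was 0.74 (-0.93 to 2.40), and -0.11 without Ctrl 2. Kif23 averaged 9.66 ± 2.35 in OE, 8.99 ± 1.47 in KO and 7.78 ± 3.01 in Ctrl. Prc1, which bundles the central spindle, averaged 28.0 ± 11.2 in OE, 25.4 ± 1.35 in KO and 20.96 ± 6.62 in Ctrl. The motor Kif20a averaged 5.19 ± 1.81 in OE, 4.28 ± 0.130 in KO and 3.66 ± 1.52 in Ctrl. Anillin (Anln), a scaffold of the ring, averaged 4.08 ± 1.08 in OE, 3.99 ± 1.39 in KO and 2.45 ± 1.93 in Ctrl. The groups overlap for each of these 4 genes.

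Of the chromosome proteins, Top2a (ENSMUSG00000020914, chromosome 11, 98992943 to 99024189), the topoisomerase that untangles sister chromatids, was at 75.7, 117, 105, 84.4 and 103 scaled TPM in OE 1 to OE 5, 48.0 and 121 in KO 1 and KO 2, and 114, 7.76 and 79.1 in Ctrl 1 to Ctrl 3. Ctrl 2 was the lowest by far and KO 1 the next lowest, and KO 2 was the highest. The log2 difference was 1.17 (-0.40 to 2.74) in OE against Ctrl and 0.84 (-1.12 to 2.80) in KO against Ctrl, with limma adjusted p = 0.757 and 0.943. Without Ctrl 2 they were 0.015 and -0.31. Mki67, the gene of the Ki-67 proliferation antigen, averaged 12.6 ± 6.04 in OE, 10.9 ± 1.54 in KO and 9.67 ± 5.34 in Ctrl, and the library labelled OE 1 and OE 5, at 6.31 and 6.02, were the lowest after Ctrl 2.

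Further genes of the pathway were mostly positive against Ctrl too. Of 107 tested genes out of 108 listed for the kinetochore, spindle, APC/C, condensin and cohesin, and control of G2 and mitosis, 93 were positive in OE against Ctrl (median 0.30), 85 in KO against Ctrl (0.26) and 64 in OE against KO (0.059), and 0 passed in limma in any comparison (0% called over all genes). Without Ctrl 2 the medians against Ctrl were 0.057 in OE and -0.039 in KO. Of 45 DNA replication genes, 43 were positive in OE against Ctrl (median 0.48, and 0.084 without Ctrl 2), 31 in KO against Ctrl (0.093, and -0.27 without Ctrl 2) and 37 in OE against KO (0.28), and 0 passed. Of 8 tested CDK inhibitors and pocket proteins, brakes of the cycle, 1 was positive in OE against Ctrl (median -0.17), 3 in KO against Ctrl (-0.26) and 4 in OE against KO (0.077), and 0 passed.

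The gene with the smallest p in each of these lists is given here as a description, with all libraries included. Without Ctrl 2 the OE against Ctrl medians were 0.084 for the replication genes and 0.057 for the further mitotic genes. Values of the single genes without Ctrl 2 are not given here. In OE against Ctrl, Pcna, the sliding clamp of DNA polymerases, averaged 32.7 ± 4.07 scaled TPM in OE and 17.6 ± 9.15 in Ctrl, and its log2 difference was 0.96 (0.30 to 1.61) (limma adjusted p = 0.755). Cenpx, another centromere histone-fold protein, averaged 9.53 ± 1.62 scaled TPM in OE and 4.94 ± 2.54 in Ctrl, and its log2 difference was 0.91 (0.17 to 1.65) (limma adjusted p = 0.755). Kif22, a chromosome-bound kinesin, averaged 5.29 ± 1.28 scaled TPM in OE and 2.56 ± 1.86 in Ctrl, and its log2 difference was 0.97 (0.14 to 1.81) (limma adjusted p = 0.755). All of these lay on the higher side in OE, as did the next ones. Fbxo5, the APC/C inhibitor EMI1, averaged 6.18 ± 1.55 scaled TPM in OE and 3.00 ± 2.11 in Ctrl, and its log2 difference was 0.98 (0.12 to 1.84) (limma adjusted p = 0.755). Cdca5, the cohesin protector sororin, averaged 8.89 ± 2.68 scaled TPM in OE and 5.39 ± 4.25 in Ctrl, and its log2 difference was 0.85 (-0.16 to 1.86) (limma adjusted p = 0.755). Pbk, a mitotic kinase, averaged 10.6 ± 1.83 scaled TPM in OE and 5.98 ± 4.395 in Ctrl, and its log2 difference was 1.03 (-0.0083 to 2.06) (limma adjusted p = 0.755). For CDK inhibitors the smallest p was that of Rb1, the retinoblastoma protein gene, at -0.40 (-1.24 to 0.44).

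In KO against Ctrl, Mad1l1, which brings MAD2 to kinetochores, averaged 3.90 ± 1.76 scaled TPM in KO and 1.49 ± 0.677 in Ctrl, and its log2 difference was 0.96 (0.073 to 1.85) (limma adjusted p = 0.943). Kif2a, a depolymerising kinesin, averaged 41.5 ± 8.14 scaled TPM in KO and 72.3 ± 26.0 in Ctrl, and its log2 difference was -0.74 (-1.497 to 0.02) (limma adjusted p = 0.943). Neither passed the test. Rfc5, a clamp loader subunit, averaged 21.1 ± 6.78 scaled TPM in KO and 32.6 ± 1.68 in Ctrl, and its log2 difference was -0.64 (-1.29 to 0.022) (limma adjusted p = 0.943). Melk, a kinase of dividing cells, averaged 23.7 ± 12.4 scaled TPM in KO and 14.8 ± 10.2 in Ctrl, and its log2 difference was 0.91 (-0.69 to 2.499) (limma adjusted p = 0.943). The remaining lists gave Cdc16, an APC/C subunit, at 1.03 (-0.0013 to 2.06), Ncaph2, a condensin subunit, at 0.68 (-0.031 to 1.39) and Rbl2, the pocket protein p130, at -0.75 (-1.57 to 0.061). In OE against KO, Pcna, again first of the replication list, averaged 32.7 ± 4.07 scaled TPM in OE and 12.4 ± 4.08 in KO, and its log2 difference was 1.35 (0.60 to 2.11) (limma adjusted p = 1.00). Cenpw, a centromere histone-fold protein, averaged 0.598 ± 0.342 scaled TPM in OE and 1.65 ± 0.403 in KO, and its log2 difference was -0.74 (-1.51 to 0.022) (limma adjusted p = 1.00). Spag5, a spindle protein known as astrin, averaged 10.4 ± 3.47 scaled TPM in OE and 5.45 ± 2.07 in KO, and its log2 difference was 0.80 (-0.27 to 1.87) (limma adjusted p = 1.00). None passed the test. Cdc16 stood at -0.67 (-1.61 to 0.28), the cohesin subunit Stag2 at -0.54 (-1.25 to 0.18), Pbk at 0.54 (-0.65 to 1.72) and Cdkn1b, the CDK inhibitor p27, at -0.50 (-1.17 to 0.17).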

How the data were processed

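Per the file headers the deposited values are TPM per Ensembl gene ID, with 1 file for each of 10 libraries. Ctrl 1 has a header without a unit, and was taken as TPM because its values add up like those of the others. Per the submitters' processing notes, TopHat, Cufflinks and the build mm10 were used. Not given in the sources used here are the tool that gave TPM, the annotation and the strand setting. Depth is lost in TPM, so precision rests on the spread between libraries.

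Each library was divided by a median-ratio factor over 11146 genes. Genes with at least 1 TPM in at least 2 libraries (13056) were tested as log2(scaled TPM + 1) with limma 3.58.1 in R 4.3.3, which was tested on simulated data, all 3 groups sharing 1 spread, with Benjamini-Hochberg adjustment over all genes at 0.05. A fold change on this scale understates that of low genes. The 3 genes with the smallest p per comparison and the highest gene of each role are given library by library, and of each other list the gene with the smallest p. The members and lists were chosen with earlier results of these data known. Alternatives changed the scaling, pseudocount, filter, samples, weights and replicate block.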

Additional observations from a re-analysis of the deposited data

Results flagged for a closer look

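Within the 5 OE libraries, 3 of the 38 genes had 1 library whose gap to its nearest neighbour took more than 0.71 of the group's range, where chance gives about 1 in 20. Ccnb1 was at 10.4 scaled TPM in the library labelled OE 1, against 22.6 to 27.1 in the other OE libraries. Racgap1 was at 13.5 in the same library, against 43.1 to 54.1 in the others. Cdc20 was at 14.2 in OE 5, against 5.72 to 7.24 in the others.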

How the results depend on the processing

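None of the 38 genes passed the test under any alternative, the smallest adjusted p being 0.397 in limma, for OE against Ctrl without Ctrl 3. The number of all genes called in KO against Ctrl was 5 with no filter, 1 with the compared groups alone and 0 to 2 when single libraries were left out. In OE against Ctrl it was 1 with the compared groups alone, 3 with the replicate block, 0 to 1 with single libraries left out and 1 without Ctrl 3, OE 3 and OE 4. In OE against KO it was 7 with no filter, 0 to 2 with single libraries left out, 1 without Ctrl 2 and OE 1, and 1 without Ctrl 3, OE 3 and OE 4. These last 2 alternatives were chosen after seeing the data. The median of the 38 genes ran from 0.083 (without Ctrl 2) to 1.04 in OE against Ctrl, from -0.065 to 0.78 in KO against Ctrl and from -0.085 to 0.43 in OE against KO when single libraries were left out. As deposited, the median of all genes was 0.38 in KO against Ctrl and 0.36 in OE against Ctrl, against medians of 0.73 and 0.85 for the 38 genes.

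Same-numbered libraries did not deviate together (correlations of -0.18 to 0.063 across genes), so numbers were not taken as pairs. With the replicate block the medians were 0.63 in OE against Ctrl, 0.59 in KO against Ctrl and -0.0038 in OE against KO, and in OE against KO 9 of the 38 genes turned sign. With library weights the medians were 0.18, -0.032 and 0.23 in the same order of comparisons, and 8, 17 and 4 of the 38 genes turned sign. Without Ctrl 2 and OE 1, 6, 19 and 7 did. Of the 14 genes given library by library, Mad2l1 in OE against KO turned to -0.24 with the block. With library weights those that turned were Aurka in OE against KO (0.0058), Racgap1 in OE against KO (0.089) and Ect2 in OE against Ctrl (-0.065), and in KO against Ctrl Aurkb (-0.57), Plk1 (-0.088), Stmn1 (-0.088) and Top2a (-0.24). Without Ctrl 2 and OE 1 those of the 14 were Aurka (0.046) and Racgap1 (0.31) in OE against KO, and Aurkb (-0.66), Birc5 (-0.31), Plk1 (-0.11), Stmn1 (-0.25) and Top2a (-0.31) in KO against Ctrl. Cenpa in OE against KO was 0.028 without Ctrl 3, OE 3 and OE 4, and Racgap1 in OE against KO was 0.0046 after quantile normalization. The cause was not tested.

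When single libraries were left out in turn, 14 of the 38 genes changed sign at least once in OE against Ctrl, 23 in KO against Ctrl and 24 in OE against KO. Of the 14 genes given library by library, those that did so ran in KO against Ctrl from -0.65 to 1.06 for Aurkb, -0.31 to 1.69 for Birc5, -0.13 to 0.81 for Cdk1, -0.11 to 0.85 for Plk1, -0.25 to 0.76 for Stmn1 and -0.31 to 1.54 for Top2a. In OE against Ctrl they ran from -0.11 to 1.40 for Ect2 and -0.013 to 1.02 for Racgap1. In OE against KO they ran from -0.50 to 0.43 for Aurka, -0.10 to 0.94 for Bub1, -0.15 to 0.78 for Cdk1, -0.28 to 0.13 for Cenpa, -0.039 to 0.45 for Mad2l1, -0.23 to 0.63 for Plk1, -0.31 to 0.31 for Racgap1, -0.33 to 0.98 for Top2a and -0.26 to 0.54 for Ube2c. Leaving out 1 KO library leaves a lone sample that is assumed to vary like the other groups.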
